A study of Mus musculus with 12 samples.

Results

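The proteasome genes of the mouse were taken as all array probes whose platform gene symbol starts with Psma, Psmb, Psmc, Psmd, Psme, Psmf or Psmg, leaving out the inducible subunits Psmb8, Psmb9 and Psmb10. The rule found 81 of the 45281 probes, belonging to 46 of the 19057 genes named by a probe of 1 symbol. Of these genes, 44 encode parts of the proteasome, its assembly factors or its activators. The other two, Psmc3ip and Psme3ip1, share only the prefix and are described apart. No probe carried the symbol Psmf1, and that inhibitor was not analysed here.

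The proteasome is the barrel-shaped protease that degrades most proteins tagged with ubiquitin. Its core particle stacks outer rings of alpha subunits, which gate the entrance, on inner rings of beta subunits, of which Psmb5, Psmb6 and Psmb7 carry the cutting sites. A regulatory cap binds ubiquitin chains and removes them in its lid, and unfolds the substrate with a ring of ATPases in its base. Activators of the Psme family open the core without ubiquitin, and dedicated chaperones assemble core and cap. Pluripotent stem cells are known for high proteasome activity, and in human embryonic stem cells the lid subunit PSMD11 has been tied to it.

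Transcripts were measured on Illumina bead arrays in 4 groups with 3 arrays each. ESC were mouse embryonic stem cells of the OG2 line, from a female and male mix. The MEF were OG2 embryonic fibroblasts, all male. The iPS4F cells were male induced pluripotent stem cells made with Oct4, Sox2, Klf4 and c-myc, and the male iPS6F cells were made with these 4 factors plus Brg1 and Baf155, subunits of the BAF chromatin remodelling complex. Each array took 400 ng of RNA amplified for 12 h. The study set the reprogrammed cells beside stem cells and the starting fibroblasts. The design text speaks of 4 samples in triplicate, and no label says that the arrays of a group came from separate cultures or clones. With 3 arrays a group, every p-value here therefore measures the spread between arrays, which may be technical. The sex of the cells differs between ESC and the other groups and cannot be told apart from the cell type.

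Mean raw intensity ran from 139 to 237 over the 12 arrays, and between 14107 and 17741 probes were detected on each. All 8 pluripotency markers checked were detected on every ESC, iPS4F and iPS6F array, and all 8 fibroblast markers on every MEF array. On the MEF arrays 5 of the pluripotency markers, Nanog, Zfp42, Esrrb, Tdgf1 and Utf1, were detected on none. Sox2 and Dppa5a were detected on 1 MEF array each, and Pou5f1 on all 3, at 4.53 to 4.68. Of the fibroblast markers, Vim was detected on every pluripotent array, and Thy1 on 2 ESC arrays and every iPS array. Dcn was detected on 2 and Col1a2 on 1 of the iPS4F arrays, and the remaining fibroblast markers on no pluripotent array. All 7 macrophage markers were also detected on every MEF array, with a summed level of 10.0 to 10.5 on the log2 scale. No macrophage marker was detected on all 3 arrays of another group, where the sum was 6.97 to 7.17. These markers moved with each comparison against MEF, and their part in the results was not tested. The RNA came from whole cultures, so fewer cells of a type and less RNA per cell cannot be told apart.

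Levels are given as log2 of the background-corrected, quantile-normalised intensity of the brightest detected probe of each gene, and differences as log2 ± standard error (SE). A gene entered the test if 1 or more groups detected a probe of it, at a detection p-value under 0.05, on each of their 3 arrays. It is called higher or lower where limma's moderated test, adjusted by the Benjamini-Hochberg method over 10096 genes, gave a p under 0.05. Of the 44 proteasome genes 36 entered. Psma1, Psma3, Psma6, Psmb11, Psmc6, Psmd3, Psmd6 and Psmg4 had no probe past the detection filter, so nothing is known here of these subunits. Psmb11 is the thymus-specific beta subunit. Of the 36, 33 were detected on all 12 arrays. Psma8, Psmd2 and Psmd9 were not, and entered only through the groups that detected them, so counts over the 33 come first.

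**Figure D1:**
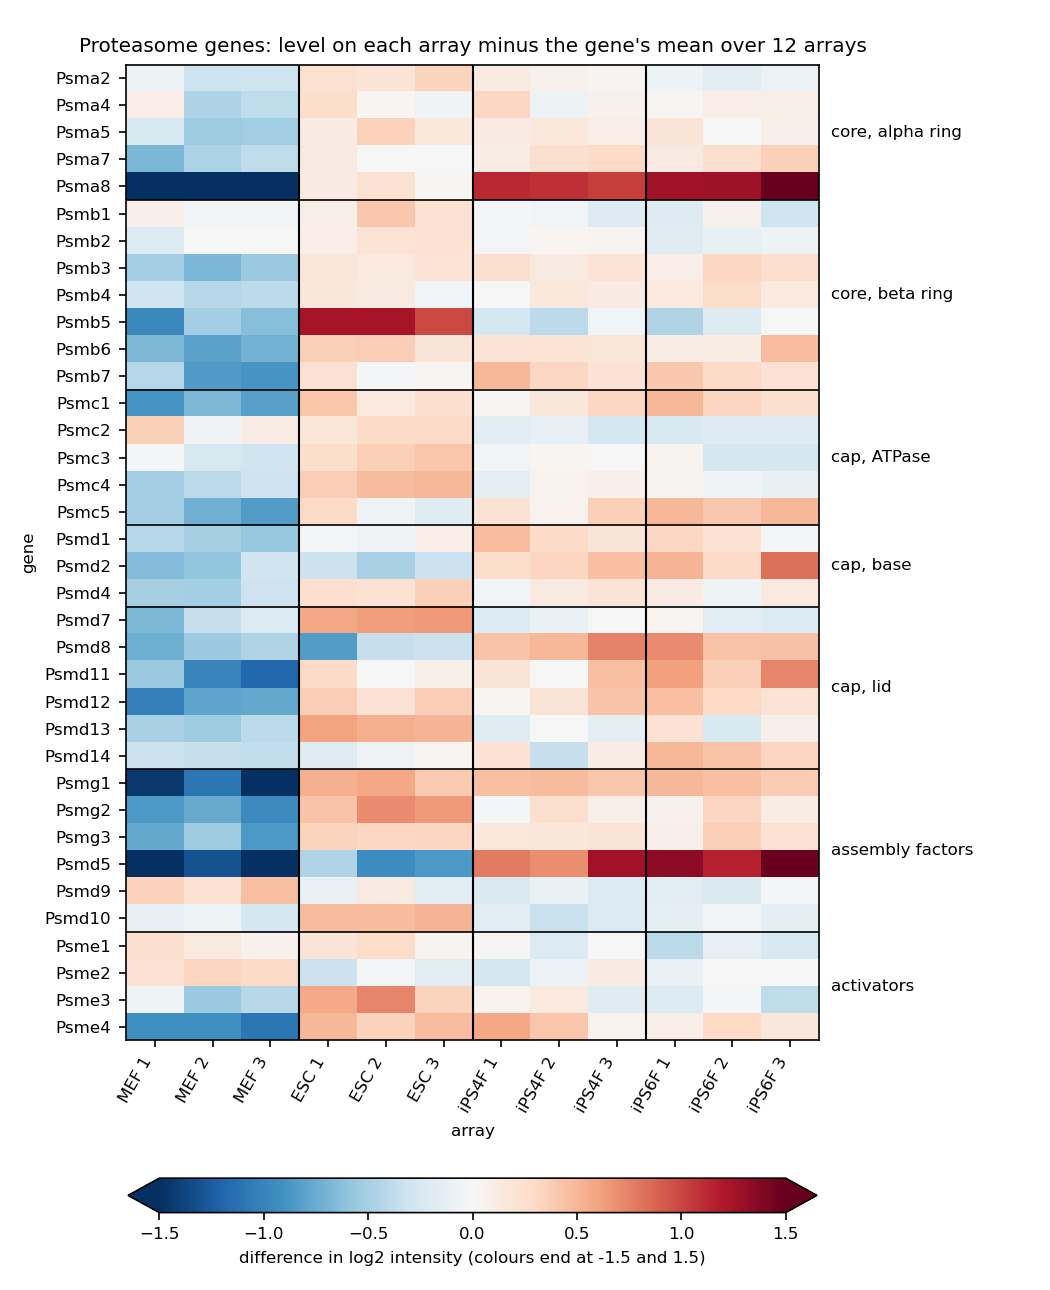
Level of each of the 36 proteasome genes on each of the 12 arrays, as the difference in log2 intensity from the gene's mean over all arrays. Rows are genes by class, columns are arrays by group, red is above and blue below the gene's mean, and most rows are blue in the 3 MEF columns.

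ESC held more transcript of most proteasome genes than MEF. Of the 33 genes detected on every array, 26 were higher in ESC and 1, Psme2, was lower, while 6 did not pass the test. Among all 6444 genes detected on every array, 46% were called higher and 32.6% lower. The median difference of the 33 was 0.72 on the log2 scale, beside 0.21 for those 6444 genes. Over all 36 genes tested, 27 were higher and 2 lower, beside 40.3% and 36.3% of all 10096 genes. By class, 9 of 11 core genes, 10 of 13 cap genes, 5 of 5 assembly factors and 2 of 4 activators detected on every array were higher. Of the 36, 21 were called and at least 1.5-fold higher and 0 at least 1.5-fold lower, beside 30.4% and 27.3% of all genes. Under median scaling of the arrays, used instead of the quantile step, 17 of 36 were higher and 2 lower, beside 24% and 39.2% of all genes. The members' median less that of all genes was 0.62 there and 0.63 with the quantile step. Among the calls lost were those of Psmb2, Psmc5, Psmd1, Psmd5, Psmd10 and Psme3 (adjusted p 0.106 to 0.517).

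The same MEF arrays served all comparisons with fibroblasts, so these are given side by side and are not independent. In iPS4F, 26 of the 33 genes were higher than in MEF and 2 lower, where 42.9% and 36.4% of genes detected on every array were called. In iPS6F, 23 were higher and 3 lower, where 42.7% and 37.1% were called. The medians of the 33 were 0.53 and 0.57, beside 0.11 and 0.09 for the genes detected on every array. Over the 36 genes tested, 28 were higher and 3 lower in iPS4F, beside 39.8% and 39.1% of all genes, and 25 were higher and 4 lower in iPS6F, beside 39.2% and 39.4%.

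**Figure D2:**
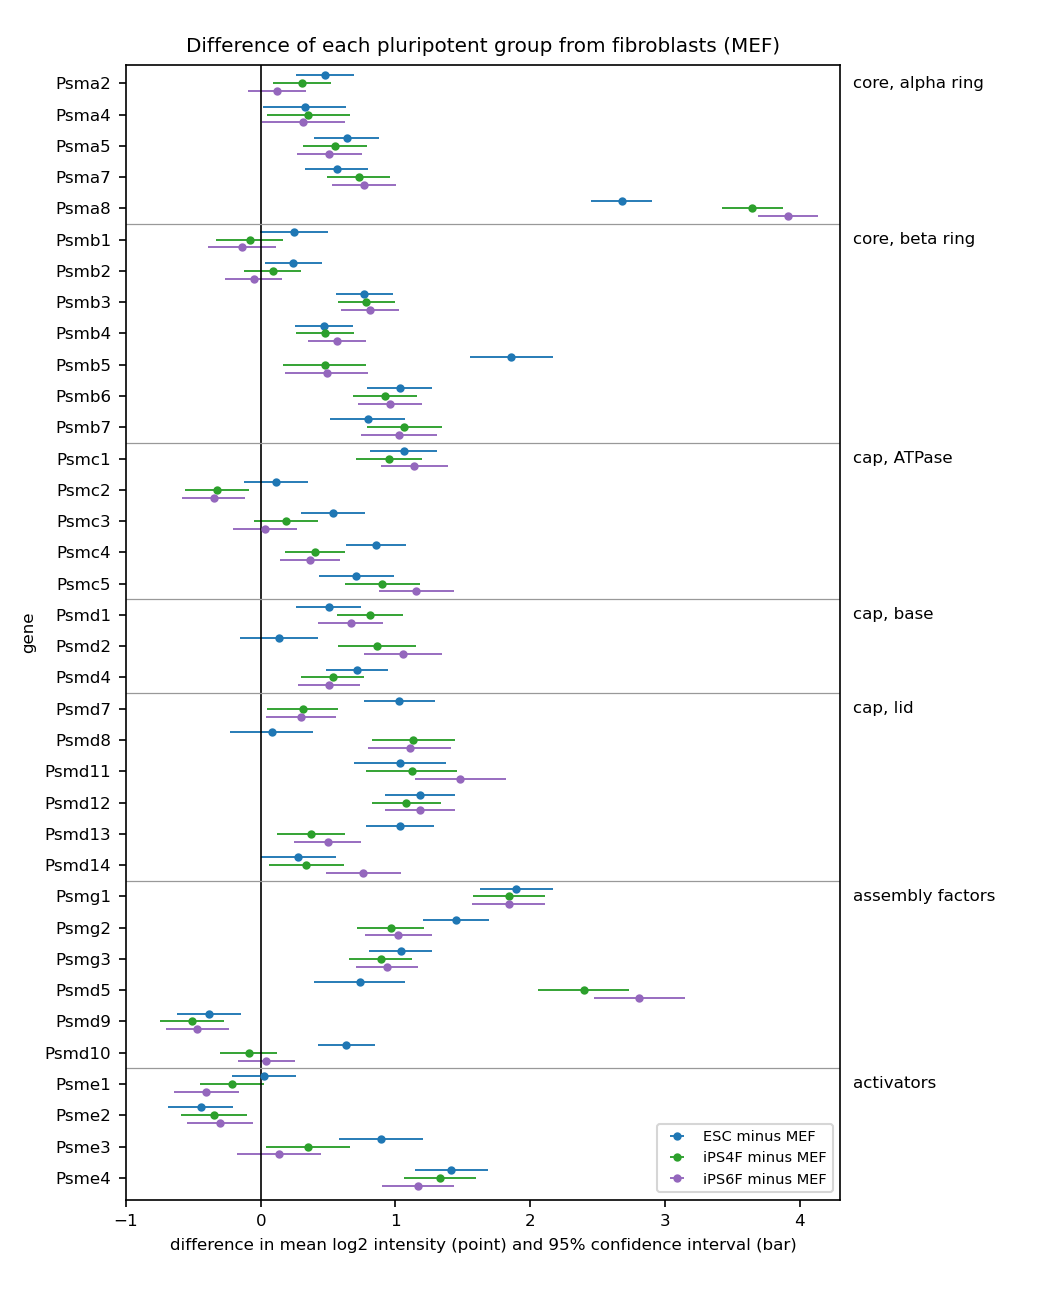
Difference in mean log2 intensity of ESC, iPS4F and iPS6F from MEF for each proteasome gene (points), with 95% confidence intervals (bars). Most points lie to the right of 0. Psma8 was not detected in MEF, so its points rest on values not above background there, and Psmd9 and Psme2 lie to the left of 0 in all 3 comparisons.

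In the alpha ring, Psma8 had the largest difference from MEF. Psma8 is the alpha subunit known from the testis, where it takes the place of Psma7 in the proteasome of spermatocytes. Psma8 measured 4.20, 4.17 and 4.10 in MEF, 6.84, 6.94 and 6.73 in ESC, 7.85, 7.82 and 7.76 in iPS4F, and 7.98, 7.99 and 8.25 in iPS6F. Psma8 was not detected on any MEF array, and the iPS arrays lay above all ESC arrays. Taken against the detection floor, Psma8 was at least 5.38-fold higher in ESC, at least 10.5-fold in iPS4F and at least 12.6-fold in iPS6F. Psma8 entered the test only through the pluripotent groups, so these folds over MEF are a description. A further Psma8 probe was likewise undetected in MEF and measured 6.51, 7.14 and 7.20 in ESC, iPS4F and iPS6F. The gene lies on chromosome 18.

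Among the other alpha genes, Psma4 had the smallest difference between ESC and MEF. Psma4 stood at 11.11, 10.55 and 10.63 in MEF, 11.28, 11.04 and 10.96 in ESC, 11.33, 10.94 and 11.08 in iPS4F, and 11.04, 11.11 and 11.10 in iPS6F. The groups overlapped, because MEF array 1 lay among the pluripotent arrays, and the difference of 0.33 ± 0.15 between ESC and MEF missed the threshold (adjusted p = 0.0513, or 0.0290 under centred median scaling). Psma4 was called higher in iPS4F than in MEF by 0.35 ± 0.15 (adjusted p = 0.0359). That call was lost without iPS4F array 1, iPS4F array 3, MEF array 2 or MEF array 3, with adjusted p of 0.0557 to 0.167. It was also lost with the authors' log2 values (0.0807), with no detection filter (0.0755) and with only the 2 groups fitted (0.0526). Psma2, Psma5 and Psma7 were higher in ESC than in MEF, by 0.48 to 0.64.

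The beta ring held the catalytic subunit with the widest spread between the pluripotent groups, Psmb5, whose product has the chymotrypsin-like site and is the main target of proteasome inhibitor drugs. The Psmb5 probe read 6.01, 6.46 and 6.34 in MEF, 8.21, 8.21 and 7.97 in ESC, 6.71, 6.59 and 6.94 in iPS4F, and 6.52, 6.78 and 6.97 in iPS6F. All ESC arrays lay above every other array, and the iPS arrays lay above the MEF arrays without reaching ESC. Psmb5 was higher in ESC than in MEF by 1.86 ± 0.15 (3.63-fold, adjusted p = 3.38e-09). In iPS4F and iPS6F it was higher than in MEF by 0.47 ± 0.15 and 0.49 ± 0.15 (adjusted p = 0.00695 and 0.00568), and the iPS6F call was lost under median scaling (adjusted p = 0.194). Against ESC it was lower by 2.61-fold in iPS4F (adjusted p = 1.78e-06) and 2.59-fold in iPS6F (adjusted p = 1.47e-06). The gene, on chromosome 14, was read by a single probe, so no further probe bears on this.

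For the brightest probes of the other catalytic subunits, no difference between ESC and an iPS line was called. Psmb6 encodes the subunit with the caspase-like site. Levels of Psmb6 were 10.48, 10.36 and 10.44 in MEF, 11.51, 11.52 and 11.34 in ESC, 11.36, 11.36 and 11.33 in iPS4F, and 11.27, 11.27 and 11.62 in iPS6F. Every pluripotent array lay above every MEF array, by 1.03 ± 0.11 in ESC (adjusted p = 2.59e-07). The iPS4F and iPS6F means differed from ESC by -0.11 (95% interval -0.34 to 0.13) and -0.07 (95% interval -0.31 to 0.17). The other Psmb6 probe was called lower in iPS4F than in ESC (-0.32, adjusted p 0.0331 over all probes) and was not called in iPS6F (-0.13, 0.410). Psmb7 encodes the subunit with the trypsin-like site. For Psmb7 the arrays gave 10.37, 9.95 and 9.91 in MEF, 11.02, 10.77 and 10.82 in ESC, 11.30, 11.11 and 11.02 in iPS4F, and 11.20, 11.09 and 11.02 in iPS6F. Again the pluripotent arrays did not overlap with MEF, and ESC was higher by 0.79 ± 0.13 (adjusted p = 3.54e-05), iPS4F by 1.07 ± 0.13 and iPS6F by 1.03 ± 0.13. Against ESC, Psmb7 differed by 0.27 (95% interval -0.01 to 0.55) in iPS4F and 0.23 (95% interval -0.05 to 0.51) in iPS6F. Under median scaling and its centred form the iPS4F difference of Psmb7 passed (0.89 and 0.46, adjusted p 0.0103 and 0.0162). Other Psmb7 probes were called against ESC in both directions, as given below.

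Of the beta subunits without a cutting site, Psmb3 differed most between ESC and MEF. Psmb3 measured 10.57, 10.41 and 10.54 in MEF, 11.28, 11.25 and 11.31 in ESC, 11.33, 11.23 and 11.31 in iPS4F, and 11.19, 11.41 and 11.35 in iPS6F. Its pluripotent arrays lay close together and all above MEF, with 0.77 ± 0.10 in ESC (adjusted p = 2.34e-06). Psmb2 differed least. Psmb2 stood at 11.27, 11.47 and 11.46 in MEF, 11.57, 11.67 and 11.69 in ESC, 11.46, 11.49 and 11.51 in iPS4F, and 11.29, 11.36 and 11.39 in iPS6F. Its difference of 0.24 ± 0.10 in ESC passed narrowly (adjusted p = 0.0355) and was lost without ESC array 2, ESC array 3 or MEF array 1 (adjusted p 0.0810 to 0.125), with the authors' log2 values (0.0602) and with only the 2 groups fitted (0.0684). Psmb1 was not called against MEF in any pluripotent group.

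Promoter letters were read for the proteasome genes because many of them moved together and because Nfe2l1 and Nfe2l2, transcription factors known to drive proteasome genes, bind the antioxidant response core TGACNNNGC. RefSeq windows from 250 bases before to 50 after the gene start (build GRCm38.p6) were found for 36 of the 44 genes, 39 windows in all. Shown are those of the catalytic subunits Psmb5 (chr14:54617946-54618245, minus strand) and Psmb6 (chr11:70525107-70525406, plus strand), the lid subunit Psmd12 (chr11:107479278-107479577, plus strand) and the activator Psme4 (chr11:30771525-30771824, plus strand), 4 genes called higher in every pluripotent group than in MEF. They run 5′ to 3′ on the gene's strand, and capitals mark the match to TGACNNNGC on either strand.
Psmb5: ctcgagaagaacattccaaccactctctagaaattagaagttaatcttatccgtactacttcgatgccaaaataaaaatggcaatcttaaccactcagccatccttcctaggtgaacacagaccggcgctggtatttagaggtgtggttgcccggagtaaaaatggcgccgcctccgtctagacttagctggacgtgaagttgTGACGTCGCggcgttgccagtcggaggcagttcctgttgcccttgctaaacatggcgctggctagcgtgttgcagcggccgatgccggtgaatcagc
Psmb6: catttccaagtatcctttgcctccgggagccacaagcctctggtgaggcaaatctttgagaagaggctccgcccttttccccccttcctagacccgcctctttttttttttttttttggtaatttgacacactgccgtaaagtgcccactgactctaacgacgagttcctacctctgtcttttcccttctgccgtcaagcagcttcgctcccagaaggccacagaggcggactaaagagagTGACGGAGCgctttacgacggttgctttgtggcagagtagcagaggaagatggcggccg
Psmd12: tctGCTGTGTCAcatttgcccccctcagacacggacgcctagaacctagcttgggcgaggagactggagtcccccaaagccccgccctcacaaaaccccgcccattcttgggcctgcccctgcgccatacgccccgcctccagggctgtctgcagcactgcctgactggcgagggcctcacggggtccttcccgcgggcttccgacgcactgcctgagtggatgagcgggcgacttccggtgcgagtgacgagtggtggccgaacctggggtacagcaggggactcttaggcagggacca
Psme4: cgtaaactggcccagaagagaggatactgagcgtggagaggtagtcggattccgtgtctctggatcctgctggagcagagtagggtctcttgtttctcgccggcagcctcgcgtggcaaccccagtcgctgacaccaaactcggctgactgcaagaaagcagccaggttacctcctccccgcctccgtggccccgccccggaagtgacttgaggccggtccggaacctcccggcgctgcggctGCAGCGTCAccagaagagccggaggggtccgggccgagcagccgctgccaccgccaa
The match lay 47 bases before the gene start in Psmb5 and 9 bases before it in Psmb6, both on the gene's strand. In Psmd12 and Psme4 it lay on the opposite strand. Besides these 4, the windows of Psmc6, not tested here, and of Psmd9 held a match. The brightest Psmd9 probe was called lower in every pluripotent group than in MEF. In all, 6 of 39 windows (15.4%) held a match, beside 12.4% of all 32851 windows in the table. The CCAAT box stood in 33.3% of member windows against 37.4% of all, and the GC box GGGCGG in 59% against 35.7%. The core of the nuclear respiratory factor site, a pair of GCGC blocks spaced by any NN, stood in 17.9% against 6.23%, namely in Psma2, Psma3, Psma4, Psmc4, Psmc5, Psmd14 and Psmg1. Both strands were searched, that last core reads the same on both, and these matches only describe letters.

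Within the cap, the ATPases that unfold the substrate were split. Psmc1 differed most. The Psmc1 probe read 8.03, 8.24 and 8.10 in MEF, 9.33, 9.06 and 9.16 in ESC, 8.93, 9.08 and 9.22 in iPS4F, and 9.41, 9.23 and 9.15 in iPS6F. No pluripotent array overlapped with MEF, and Psmc1 was higher by 1.06 ± 0.12 in ESC (adjusted p = 2.93e-07), 0.95 ± 0.12 in iPS4F and 1.14 ± 0.12 in iPS6F. Psmc2 went the other way in the reprogrammed cells. Levels of Psmc2 were 11.57, 11.16 and 11.32 in MEF, 11.39, 11.50 and 11.50 in ESC, 11.05, 11.08 and 10.94 in iPS4F, and 10.98, 11.02 and 11.01 in iPS6F. ESC and MEF overlapped, with a difference of 0.11 ± 0.11 (adjusted p = 0.370), while all iPS arrays lay below both.

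Psmc2 was lower in the iPS lines, with differences from MEF of -0.33 ± 0.11 in iPS4F (adjusted p = 0.0136) and -0.35 ± 0.11 in iPS6F (adjusted p = 0.00892). These calls rest on the brighter of its probes: averaged over both, the differences were -0.10 and -0.01 and missed the threshold (adjusted p 0.384 and 0.934). The iPS4F call was also lost without iPS4F array 3 (adjusted p 0.0512) or MEF array 1 (0.0732), and its sign turned under median scaling (0.20), while the centred form gave -0.05 (0.783). The iPS6F call missed under median scaling and its centred form (adjusted p 0.443 and 0.384). Psmc3, Psmc4 and Psmc5 were called higher in ESC than in MEF, by 0.53 to 0.86.

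At the base, Psmd4 is a ubiquitin receptor that catches tagged substrates. For Psmd4 the arrays gave 11.43, 11.41 and 11.61 in MEF, 12.17, 12.14 and 12.28 in ESC, 11.88, 12.05 and 12.12 in iPS4F, and 12.04, 11.86 and 12.07 in iPS6F. All pluripotent arrays lay above MEF, by 0.72 ± 0.11 in ESC (adjusted p = 1.42e-05). Psmd2, a large scaffold of the base that docks shuttle proteins, was dim. Psmd2 measured 4.16, 4.22 and 4.52 in MEF, 4.49, 4.33 and 4.49 in ESC, 5.07, 5.14 and 5.27 in iPS4F, and 5.33, 5.10 and 5.64 in iPS6F. It was detected on 1 MEF and 2 ESC arrays and on all 6 iPS arrays, and all iPS arrays lay above all ESC and MEF arrays. The difference from ESC was 0.72 ± 0.14 in iPS4F and 0.92 ± 0.14 in iPS6F, and ESC and MEF differed by 0.14 ± 0.14. Psmd2 entered the test only through the iPS groups, so these values are a description. Its other probe differed from ESC by 0.23 and 0.30, neither called (adjusted p 0.267 and 0.136 over all probes). The offset added before the log shrinks such differences at this brightness.

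In the lid, which removes ubiquitin, the structural subunit Psmd12 had the largest difference between ESC and MEF. Psmd12 stood at 8.64, 8.87 and 8.89 in MEF, 10.03, 9.88 and 10.03 in ESC, 9.69, 9.86 and 10.09 in iPS4F, and 10.11, 9.96 and 9.87 in iPS6F. MEF lay below every pluripotent array, and the differences were 1.18 ± 0.12 in ESC (adjusted p = 1.36e-07), 1.08 ± 0.12 in iPS4F and 1.18 ± 0.12 in iPS6F. Psmd8, the subunit that completes the lid in yeast, had the smallest. The Psmd8 probe read 8.51, 8.68 and 8.78 in MEF, 8.40, 8.89 and 8.92 in ESC, 9.66, 9.73 and 9.97 in iPS4F, and 9.95, 9.66 and 9.68 in iPS6F. Here ESC overlapped with MEF (0.08 ± 0.15, adjusted p = 0.626), and both iPS lines lay clear of both.

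Psmd8 was higher than in ESC by 2.07-fold in iPS4F (adjusted p = 2.79e-05) and 2.04-fold in iPS6F (adjusted p = 2.90e-05). Psmd13 and Psmd7, both structural lid subunits, went the other way against ESC. Levels of Psmd13 were 10.92, 10.87 and 11.01 in MEF, 12.02, 11.96 and 11.92 in ESC, 11.23, 11.41 and 11.27 in iPS4F, and 11.63, 11.18 and 11.49 in iPS6F. Its iPS arrays lay between MEF and ESC with no overlap, 1.58-fold and 1.45-fold below ESC (adjusted p = 0.000285 and 0.00142). For Psmd7 the arrays gave 9.77, 10.10 and 10.24 in MEF, 11.03, 11.08 and 11.09 in ESC, 10.24, 10.35 and 10.46 in iPS4F, and 10.48, 10.29 and 10.24 in iPS6F. Its brightest probe fell 1.64-fold and 1.66-fold below ESC (adjusted p = 0.000219 and 0.000164), but its other probes did not.

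All 5 assembly factors detected on every array were higher in ESC than in MEF, by 0.63 to 1.90. Psmg1, a chaperone that helps build the alpha ring, differed most. Psmg1 measured 6.99, 7.35 and 6.77 in MEF, 8.96, 9.01 and 8.82 in ESC, 8.88, 8.90 and 8.85 in iPS4F, and 8.93, 8.88 and 8.82 in iPS6F. The pluripotent arrays were nearly level with each other and did not overlap with MEF. Psmg1 was 3.73-fold higher in ESC (adjusted p = 4.57e-10), 3.59-fold in iPS4F and 3.58-fold in iPS6F. Under median scaling, iPS4F lay 0.63 above ESC (adjusted p = 0.0265). Its partner Psmg2 and the chaperone Psmg3 were higher in all 3 groups too.

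Psmd5, Psmd9 and Psmd10 are chaperones of the ATPase ring that carry subunit-like names but leave the finished cap. They parted ways. Psmd5 stood at 4.83, 5.16 and 4.95 in MEF, 6.02, 5.53 and 5.61 in ESC, 7.25, 7.17 and 7.73 in iPS4F, and 7.81, 7.63 and 7.95 in iPS6F. Psmd5 stepped up from MEF to ESC and again from ESC to both iPS lines, with no overlap at either step. It was 1.66-fold higher in ESC than in MEF (adjusted p = 0.000519). Against ESC it was 3.17-fold higher in iPS4F (adjusted p = 7.31e-07) and 4.22-fold in iPS6F (adjusted p = 5.38e-08). It was read by 1 detected probe.

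The Psmd10 probe read 8.25, 8.30 and 8.11 in MEF, 8.84, 8.84 and 8.88 in ESC, 8.20, 8.03 and 8.16 in iPS4F, and 8.23, 8.32 and 8.23 in iPS6F. Psmd10, also known as the oncoprotein gankyrin, was higher on every ESC array than on any other. ESC was higher than MEF by 0.63 ± 0.10 (adjusted p = 1.86e-05), and iPS4F and iPS6F were 1.65-fold and 1.51-fold below ESC (adjusted p = 2.56e-05 and 0.000146). The gene lies on the X chromosome, and ESC was the group with female cells, so sex and cell type cannot be told apart here. Levels of Psmd9 were 4.94, 4.81 and 5.04 in MEF, 4.49, 4.72 and 4.42 in ESC, 4.38, 4.49 and 4.39 in iPS4F, and 4.43, 4.38 and 4.57 in iPS6F. Psmd9 was near the detection limit and lower than in MEF in every pluripotent group, with a difference of -0.38 ± 0.11 in ESC (adjusted p = 0.00505, or 0.0625 under centred median scaling). Its other probe was not called in ESC against MEF (-0.16, adjusted p 0.224 over all probes). That probe was called lower in iPS4F (-0.34, 0.0143) and iPS6F (-0.27, 0.0473).

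The activators did not move as a class. Psme4 encodes a large single-chain activator known for its work on chromatin and in the testis. For Psme4 the arrays gave 9.25, 9.25 and 9.09 in MEF, 10.67, 10.52 and 10.64 in ESC, 10.76, 10.59 and 10.23 in iPS4F, and 10.27, 10.47 and 10.35 in iPS6F. All pluripotent arrays lay well above MEF, and Psme4 was 2.67-fold higher in ESC (adjusted p = 2.24e-08), 2.51-fold in iPS4F and 2.25-fold in iPS6F. These values rest on its brightest probe. A dim further probe was detected on no MEF or ESC array and on all 6 iPS arrays. It differed by 0.15 between ESC and MEF, not called (adjusted p 0.485 over all probes), and from ESC by 0.69 in iPS4F and 0.77 in iPS6F. That probe entered only through the iPS groups, so its values are a description. Psme3 encodes the nuclear activator ring. Psme3 measured 7.73, 7.24 and 7.39 in MEF, 8.37, 8.53 and 8.13 in ESC, 7.85, 7.94 and 7.62 in iPS4F, and 7.59, 7.76 and 7.42 in iPS6F. ESC lay above all other arrays, 0.89 ± 0.15 over MEF (adjusted p = 3.30e-05), and the iPS lines overlapped with MEF. Against ESC, Psme3 was 1.45-fold lower in iPS4F (adjusted p = 0.00713) and 1.69-fold lower in iPS6F (adjusted p = 0.000534).

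Psme1 and Psme2 form the interferon-induced activator ring that works with the inducible core in antigen presentation. Psme1 stood at 9.07, 8.97 and 8.89 in MEF, 9.03, 9.10 and 8.87 in ESC, 8.85, 8.62 and 8.82 in iPS4F, and 8.42, 8.70 and 8.59 in iPS6F. ESC and MEF overlapped (0.02 ± 0.11, adjusted p = 0.853), and iPS6F was lower than MEF, with a difference of -0.40 ± 0.11 (adjusted p = 0.00377). The mean of both Psme1 probes did not pass for iPS6F (-0.17, adjusted p = 0.163), nor did the brighter probe under median scaling (adjusted p = 0.0715). The Psme2 probe read 7.56, 7.66 and 7.63 in MEF, 7.03, 7.32 and 7.17 in ESC, 7.08, 7.26 and 7.46 in iPS4F, and 7.25, 7.35 and 7.35 in iPS6F. MEF lay above every pluripotent array, and Psme2 was lower, with differences of -0.45 ± 0.12 in ESC (adjusted p = 0.00215), -0.35 ± 0.12 in iPS4F (adjusted p = 0.0111) and -0.30 ± 0.12 in iPS6F (adjusted p = 0.0246).

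The iPS4F call of Psme2 was lost without iPS4F array 1 (adjusted p 0.0675) and under median scaling (-0.11, adjusted p = 0.588), and its iPS6F call without iPS6F array 1, MEF array 2 or MEF array 3 (0.0543 to 0.0739). The smaller Psme3 call of iPS4F over MEF (0.35 ± 0.15, adjusted p = 0.0381) was lost without iPS4F array 1, iPS4F array 2, MEF array 2 or MEF array 3 (0.0915 to 0.176), with the authors' log2 values (0.0750) and with no detection filter (0.0806).

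**Figure D3:**
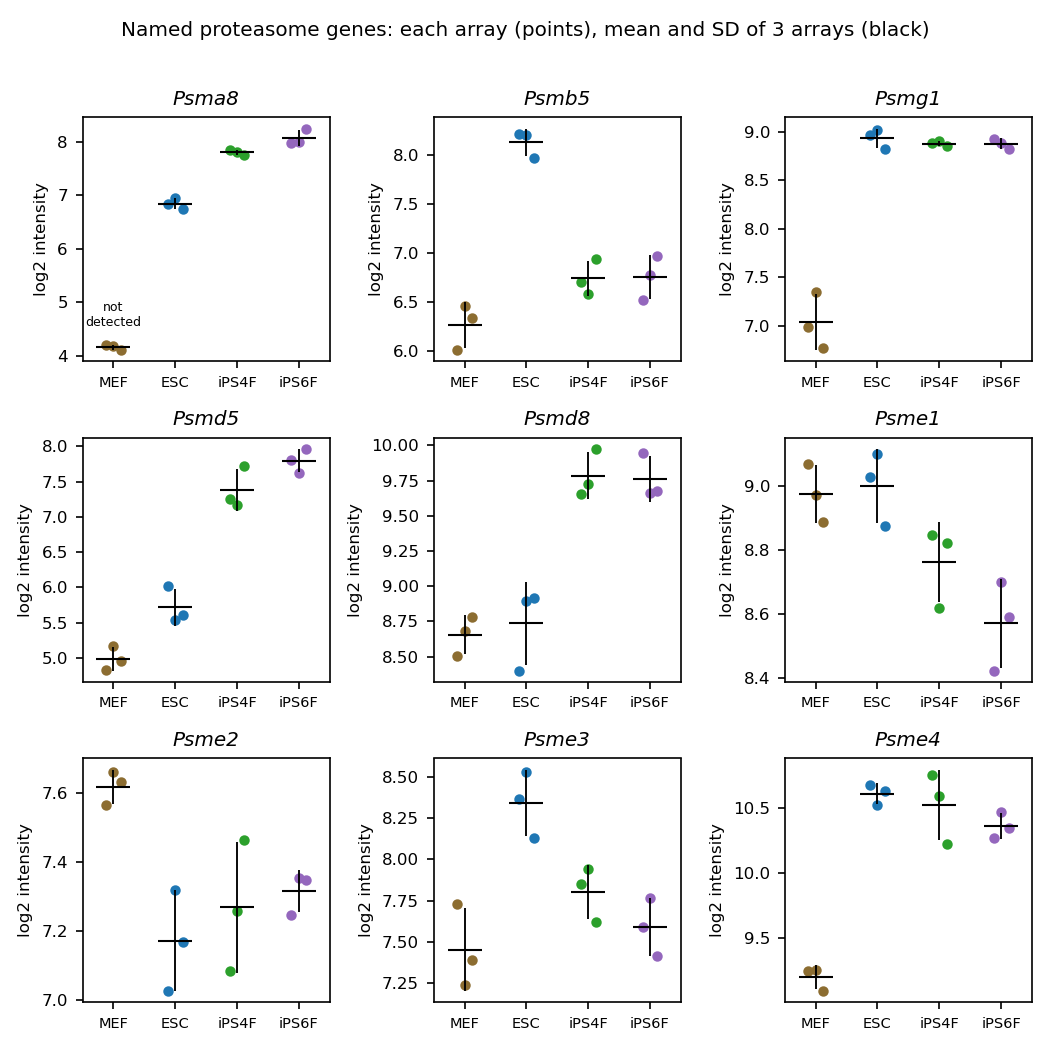
Log2 intensity of 9 named proteasome genes on each array (coloured points), with mean and SD of 3 arrays (black). Psmb5 is high in ESC alone, Psmd5 and Psmd8 are highest in the iPS lines, Psmg1 and Psme4 do not overlap between MEF and the pluripotent groups, and the axes differ between panels.

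Between the iPS lines and ESC, proteasome genes differed in both directions. The ESC arrays served both comparisons, which are therefore set side by side. Of the 33 genes detected on every array, 3 were higher and 10 lower in iPS4F, where 18.2% and 30.3% of genes detected on every array were called. In iPS6F, 5 were higher and 13 lower, where 18.5% and 34.2% were called. Over all 36 tested, 5 were higher and 10 lower in iPS4F, beside 17.8% and 24.9% of all genes, and 7 higher and 13 lower in iPS6F, beside 17.8% and 28%. These shares are near the background. The median differences of the 36 were -0.10 and -0.08, beside -0.05 and -0.07 for all genes. Lower in iPS4F were Psmb1, Psmb5, Psmc2, Psmc3, Psmc4, Psmd7, Psmd10, Psmd13, Psmg2 and Psme3, and lower in iPS6F were these with Psma2, Psmb2 and Psme1. With the mean of a gene's probes, the iPS6F calls lost included Psmb2, Psme1 and Psmc2 (adjusted p 0.197, 0.211 and 0.275). The iPS4F call of Psmc2 was lost there too (0.0790). The iPS6F call of Psmb2 was also lost without ESC array 2, ESC array 3 or iPS6F array 1 (0.0602 to 0.0690). The calls of Psmg2 rest on its brightest probe. Its other probes were not called against ESC in iPS4F (-0.24 and 0.09, adjusted p 0.0681 and 0.634 over all probes) or in iPS6F (-0.17 and 0.06, 0.203 and 0.729). Higher in iPS4F were Psma8, Psmd1, Psmd2, Psmd5 and Psmd8, and higher in iPS6F were Psma8, Psmc5, Psmd2, Psmd5, Psmd8, Psmd11 and Psmd14. Of these, Psmd2 passed the detection filter only through the iPS groups. Its place in these lists and in the counts over all 36 is therefore a description, and its other probe was not called.

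These counts depended on how the arrays were scaled. Under median scaling, 15 were higher and 1 lower in iPS4F, beside 39% and 2.31% of all genes, and 5 higher and 1 lower in iPS6F, beside 15.9% and 4.89%. The median of all genes itself shifted to 0.39 and 0.09. Relative to that shift, the members' median was 0.16 in iPS4F and 0.11 in iPS6F. Of all called genes, the share called higher then rose from 41.7% to 94.4% in iPS4F and from 38.9% to 76.5% in iPS6F. With the scaling centred on the genes tested, 7 were higher and 5 lower in iPS4F, beside 22.3% and 26% of all genes, and 7 higher and 7 lower in iPS6F, beside 19.1% and 17.3%. The calls of Psmb5 as lower and of Psma8, Psmd5 and Psmd8 as higher in both iPS lines passed under every scaling, with the authors' deposited log2 values and without any single array. The lower calls of Psmd7, Psmd10, Psmd13 and Psme3 missed the threshold under median scaling (adjusted p 0.0882 to 0.921), where the iPS4F difference of Psme3 turned to 0.17. In the centred form the iPS4F call of Psme3 was lost too (adjusted p = 0.164).

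**Figure D4:**
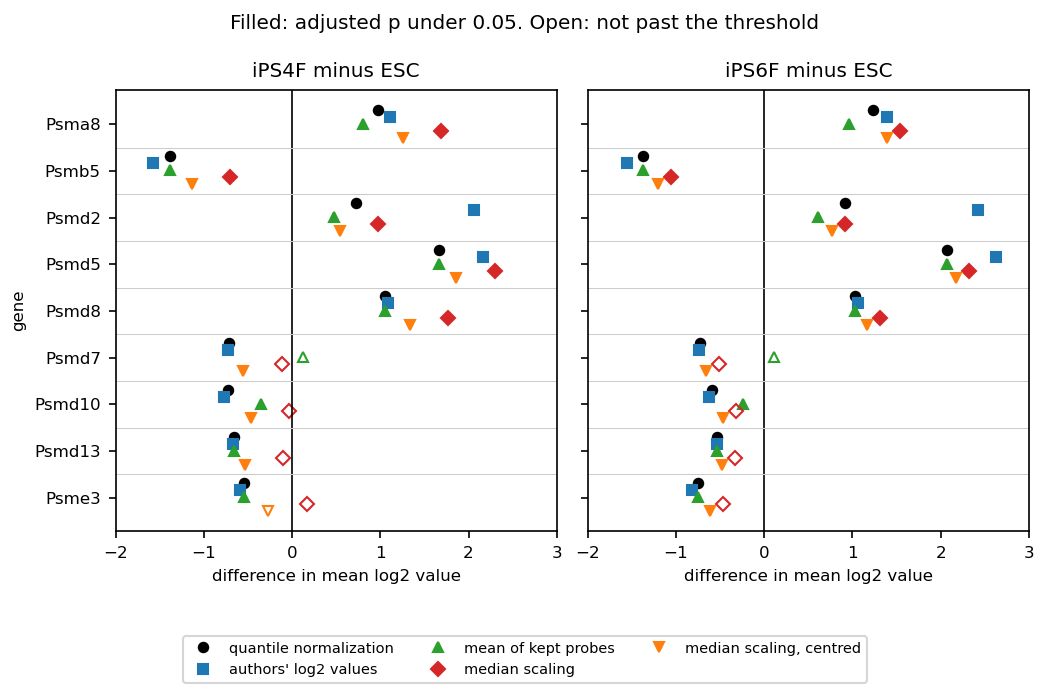
Difference in mean log2 value of iPS4F (left) and iPS6F (right) from ESC for 9 proteasome genes, computed in 5 ways. Filled symbols passed an adjusted p of 0.05, and all symbols of Psma8, Psmb5, Psmd5 and Psmd8 are filled and on 1 side of 0. Psmd7 crosses 0 with the mean of its probes, and Psme3 does so in iPS4F under median scaling.

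With Brg1 and Baf155 added to the 4 factors, no proteasome gene was called different. Limma called 0 of 36 higher and 0 lower in iPS6F than in iPS4F, beside 0.396% and 0.763% of all genes, and the count was 0 under every alternative run, the authors' log2 values included. At an unadjusted p under 0.05 there were 4, beside 12.9% of all genes. They were Psmd14, the deubiquitinase of the lid (0.42, 95% interval 0.14 to 0.70, adjusted p = 0.161), Psmd5 (0.41, adjusted p = 0.277), Psmd11 (0.36, adjusted p = 0.360) and Psma8 (0.26, adjusted p = 0.300), named after their values were seen. Over all members, the lowest lower bound of a 95% interval was -0.53 and the highest upper bound, of a different gene, was 0.75 log2 units.

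Probes of a gene mostly pointed the same way against MEF and often not against ESC. Of 18 proteasome genes with several detected probes, all probes had the same sign in 17 for ESC against MEF and in 15 for each iPS line against MEF. Against ESC this held for 8 genes in iPS4F and 7 in iPS6F. Neither this agreement nor the opposite calls below were counted over all 3648 genes with several detected probes. Whether proteasome genes differ in this from other genes was not tested. The Psma8 and Psmd2 probes and the dim Psme4 probe passed the filter only through groups where they were high. Their signs against MEF, and for Psmd2 and Psme4 also those of the iPS lines against ESC, are therefore a description. Adjusted over 17563 detected probes of the array, 70.8%, 75.7% and 76% were called in these comparisons with MEF, and 41.5% and 44.6% in those with ESC. No gene had probes called in opposite directions against MEF, while Psmb7, Psmd1 and Psmd7 did for iPS4F against ESC, and Psmb7, Psmc5, Psmd10 and Psmd7 for iPS6F against ESC.

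Psmd7 shows the size of this. Its brightest probe averaged 10.04 in MEF, 11.07 in ESC, 10.35 in iPS4F, then 10.34 in iPS6F. A further probe averaged 7.77, 8.71, 9.56 and 9.40 in the same order, and a dim one 4.65, 5.81, 6.05 and 6.18. All rose from MEF to ESC, but against ESC the brightest fell in iPS4F by 0.72 while the next rose by 0.84 ± 0.14 (adjusted p = 0.000172 over all probes). Averaged over its probes, Psmd7 differed from ESC by 0.12 in iPS4F and 0.11 in iPS6F, neither past the threshold. Its small calls over MEF (0.31 ± 0.12 in iPS4F and 0.30 ± 0.12 in iPS6F) were each lost without MEF array 1 (adjusted p 0.168 and 0.202). They were also lost without iPS4F array 2 (0.0623) or iPS4F array 3 (0.101), and without iPS6F array 1 (0.140) or iPS6F array 2 (0.0519). The authors' log2 values ended both (0.0622 and 0.0727), and median scaling (0.151), no detection filter (0.0506) and a fit of only the 2 groups (0.0618) ended that of iPS6F.

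The other 4 genes with opposite calls are Psmb7, the ATPase Psmc5, the scaffold Psmd1 and the chaperone Psmd10. Psmb7 had 4 probes, of which the dimmest fell by 0.51 ± 0.13 in iPS4F against ESC and another rose by 0.75 ± 0.14. For Psmd1 the brightest probe rose by 0.31 ± 0.12 and the dimmest fell by 0.90 ± 0.16 in that comparison, and the mean of its probes differed by -0.10. The call of the brightest Psmd1 probe was lost without ESC array 1, ESC array 2, iPS4F array 1 or iPS4F array 2 (adjusted p 0.0745 to 0.161) and with the authors' log2 values (0.0853). In iPS6F against ESC, Psmc5 probes differed by 0.45 ± 0.13, a call lost without ESC array 3 (adjusted p = 0.0591), and by -0.42 ± 0.14, and Psmd10 probes by 0.32 ± 0.12, -0.45 ± 0.14 and -0.59 ± 0.10. Which exons these probes read is not given in the sources used here, and the part that different transcripts or other genes play was not tested.

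**Figure D5:**
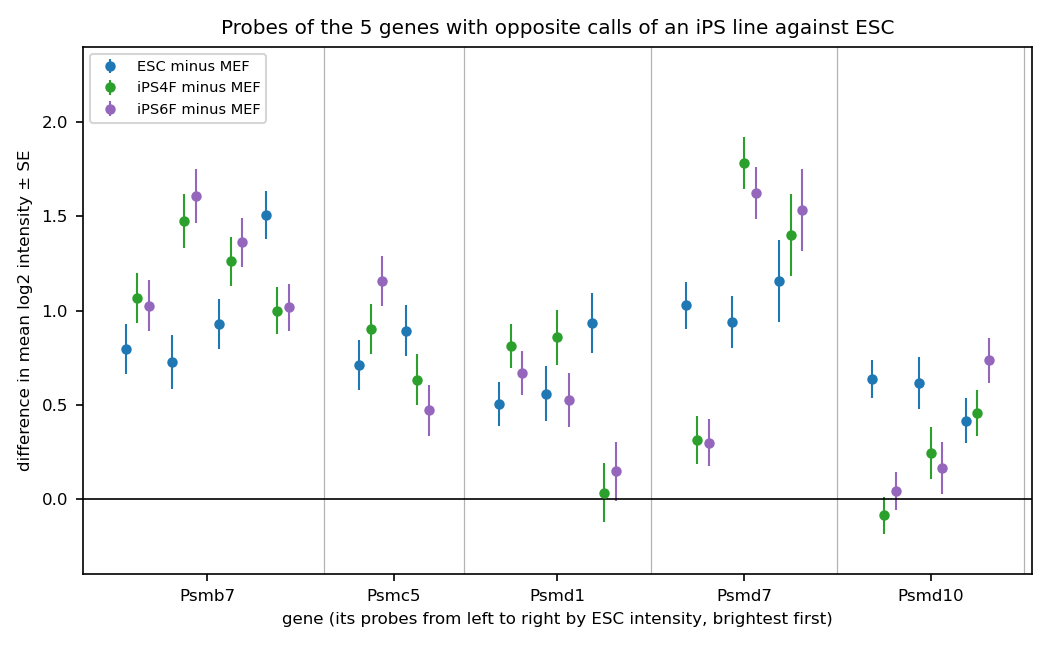
Difference in mean log2 intensity from MEF, with SE, of every detected probe of the 5 genes whose probes were called in opposite directions between an iPS line and ESC. The ESC points are above 0 for every probe, while the iPS points of Psmd7 run from 0.30 to 1.78.

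Genes that work with the proteasome but lack its prefix differed in both directions, in shares to be read against the 40.3% of all genes called higher and 36.3% lower in ESC, 39.8% and 39.1% in iPS4F, and 39.2% and 39.4% in iPS6F. Of 5 measured genes that bind or serve the cap, 2 were higher and 1 lower in ESC than in MEF, 1 was higher and 3 lower in iPS4F, and 1 higher and 3 lower in iPS6F. The deubiquitinase Uchl5 was higher by 1.74 ± 0.15 in ESC, 1.65 ± 0.15 in iPS4F and 1.55 ± 0.15 in iPS6F. Ecpas, a scaffold that holds core and cap together, was lower in these groups, with differences of -0.53 ± 0.17, -0.79 ± 0.17 and -1.27 ± 0.17, and its ESC call was lost without ESC array 1 (adjusted p 0.0527) and with the authors' log2 values (0.0864). The ubiquitin ligase Ube3c was higher in ESC by 0.37 ± 0.10 and lower in iPS4F and iPS6F, with differences of -0.34 ± 0.10 and -0.54 ± 0.10. Under median scaling the Ube3c differences of ESC and iPS4F from MEF were near 0 and not called, and in its centred form neither passed (adjusted p 0.296 and 0.114).

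Among 5 measured genes of core assembly and transcription control, 2 were higher and 2 lower in each pluripotent group than in MEF. Pomp, the chaperone that matures the core, was higher by 0.50 ± 0.10 in ESC, 0.58 ± 0.10 in iPS4F and 0.53 ± 0.10 in iPS6F. Nfe2l1, the factor that raises proteasome genes when the proteasome is inhibited, was lower, with differences of -1.02 ± 0.14, -0.81 ± 0.14 and -0.77 ± 0.14. Under median scaling the Nfe2l1 call of iPS4F (-0.43, adjusted p = 0.113) and the Pomp call of ESC (0.43, adjusted p = 0.0626) were lost. Keap1, which holds Nfe2l2 down, was lower, with differences of -1.27 ± 0.14, -2.11 ± 0.14 and -2.30 ± 0.14. Nfe2l2 itself averaged 4.86 in MEF, 5.29 in ESC, 6.63 in iPS4F, then 6.84 in iPS6F, named here for its link to Keap1. Transcript levels say nothing on the activity of these factors.

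Of 8 measured shuttle and unfolding genes, 4 were higher and 2 lower in ESC than in MEF, 3 and 2 in iPS4F, and 4 and 2 in iPS6F. The ubiquilins Ubqln4 and Ubqln1, which carry substrates to the proteasome, were higher in ESC by 1.31 ± 0.11 and 0.66 ± 0.14. The Ubqln1 call was lost under median scaling (0.35, adjusted p = 0.163). Ufd1, a cofactor of the unfoldase Vcp, was lower, with a difference of -0.93 ± 0.12. Of the ubiquitin and ubiquitin-activating genes looked for, Uba6 alone was measured, and it was not called in any comparison.

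The genes that share only the prefix were read out of the same fit. Psmc3ip, a recombination factor of meiosis, averaged 6.07 in MEF, 9.19 in ESC, 9.08 in iPS4F, then 9.12 in iPS6F. All pluripotent arrays lay far above MEF, 8.68-fold in ESC (adjusted p = 7.32e-14). Psme3ip1, whose product binds the Psme3 activator, averaged 7.56 in MEF, 8.49 in ESC, 7.67 in iPS4F, then 7.60 in iPS6F. It was higher in ESC than in MEF by 0.93 ± 0.13 (adjusted p = 3.16e-06), and lower than in ESC in both iPS lines by 1.76-fold and 1.85-fold (adjusted p = 7.07e-05 and 2.67e-05).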

How the data were processed

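Each array gave 1 intensity and 1 detection p-value per probe, both deposited by the authors without normalization, per the file headers. A deposited table of log2 values of the same arrays, with columns of equal distribution, was used as an alternative; its background handling is not stated. BeadStudio 3.2, RMA and lumi are named in the submitters' processing notes with no role. No slide or scan batch is given in the sources used here.

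Intensities were background-corrected from the detection p-values by limma's normal-exponential model with an offset of 16, quantile-normalised and log2-transformed (neqc; R 4.3.3, limma 3.58.1). Of the probes, 34885 carried 1 gene symbol in the platform annotation, 18 several and 10378 none. For each of 10096 genes the detected probe of highest mean over all arrays was kept. One limma fit over 12 arrays and 4 groups gave all 6 comparisons, adjusted by Benjamini-Hochberg within each, and was tested on simulated data. Folds marked "at least" set the detected group against, on each array, the higher of the probe's own level and the lowest detected signal. No per-sample column was left unused (0).

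Genes described singly were the catalytic subunits and activators, the members of highest and lowest ESC minus MEF difference in each other class, up to 4 called members at each end of the comparisons among pluripotent groups, members with probes called in opposite directions or with no detected probe, and up to 3 called genes of each partner list. Members and lists were chosen with earlier results of these data known. Alternatives were median scaling, other background corrections and filters, the mean of a gene's probes, the authors' log2 values, fits of 2 groups, a replicate block and leaving out each array.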

Additional observations from a re-analysis of the deposited data

How the results depend on the processing

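Counts and medians here are over the 36 proteasome genes tested, or 33 under the strict detection filter. Leaving out single arrays kept every count given here within 1.5 times: higher in ESC than in MEF 26 to 28, higher in iPS4F than in MEF 25 to 28, higher in iPS6F than in MEF 24 to 25, lower than ESC 8 to 10 in iPS4F and 11 to 13 in iPS6F, and higher than ESC 4 to 5 in iPS4F and 5 to 7 in iPS6F. Without single arrays the median of iPS6F minus ESC ran from -0.12 to -0.04, and that of iPS6F minus iPS4F from -0.0018 to 0.04, both sides of 0. Median scaling gave 17 genes higher in ESC than in MEF (median 0.48), 1 lower in iPS4F (median 1.04) and 2 lower in iPS6F (median 0.74) than in MEF, and against ESC 15 higher and 1 lower in iPS4F (median 0.55) and 1 lower in iPS6F (median 0.20). The median of iPS6F minus iPS4F was -0.35, and that of all genes shifted to -0.29 there, -0.14 for ESC minus MEF and 0.24 for iPS4F minus MEF. The share of called genes that were higher moved from 52.6% to 37.9% for ESC minus MEF and from 34.2% to 7.14% for iPS6F minus iPS4F. Single genes that turned under it were Psme3 (0.17), Psmc2 (0.16) and Psmg1 (0.63) and the partner Ufd1 (0.47) in iPS4F minus ESC, Psmc2 in iPS4F minus MEF (0.20) and Ube3c in ESC minus MEF (-0.0024). Centring that scaling on the genes tested, an alternative chosen after seeing the data, gave 1 gene lower in ESC than in MEF, medians of 0.79 for iPS4F and 0.78 for iPS6F minus MEF, and against ESC medians of 0.11 and 0.052 with 5 and 7 genes lower. There the share of called genes higher in iPS6F than in ESC was 52.4%. Requiring a detection p under 0.01 on all 12 arrays left 1 gene lower in ESC than in MEF and 3 higher in iPS4F than in ESC, since Psma8, Psmd2 and Psmd9 were then not tested. The mean of a gene's probes gave 2 genes lower in iPS6F than in MEF and 8 lower than in ESC, and turned Psmd7 against ESC (0.12 in iPS4F, 0.11 in iPS6F) and Psmd1 in iPS4F minus ESC (-0.10). The cause of these shifts was not tested. With the replicate number as a block, 28 genes were higher and 2 lower in ESC than in MEF. Deviations of same-numbered arrays correlated over 0.1 in 3 of 18 pairs (range -0.18 to 0.14, beside -0.19 to 0.19 for other numbers). With 3 arrays a group, such correlations cannot tell whether same-numbered arrays were paired. The number of arrays limits the precision.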
